A study of Mus musculus with 12 samples.

Results

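The MHC class I heavy chains and their light chain, beta-2 microglobulin, are described here in mouse macrophages given a STING agonist. The group was chosen by gene symbol and holds 10 of the 16516 symbols listed in the deposited tables, all 10 of them found. They are the classical heavy chains H2-K1 and H2-D1, the Q-region genes H2-Q4, H2-Q6 and H2-Q7, the T-region genes H2-T22, H2-T23 and H2-T24, the M-region gene H2-M3, and B2m. All 10 had a mean of at least 10 normalized counts and were tested in every comparison.

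The cells were bone marrow-derived macrophages, which are grown from marrow precursors in culture, from wild-type mice (WT, given as WTfl/fl) and from mice labelled MGMT knockout (KO). MGMT is the repair enzyme that takes alkyl groups off guanine bases. Cells of each genotype received either DMSO, the vehicle, or DMXAA for 24 h. DMXAA is a small molecule that activates mouse STING, and its dose is stated as 10 mg/ml. There were 3 libraries in each of the 4 groups, 12 in all. No Cre, promoter or strain is named in the labels, and they do not say that libraries of a group came from separate mice, so p-values measure only the spread between these libraries. As a check on the labels, Mgmt was lower in KO but not absent. It held 263, 245 and 243 reads in WT and 121, 141 and 162 in KO under DMSO, and 107, 85 and 99 and 51, 61 and 33 under DMXAA, with no overlap between genotypes under either treatment (KO over WT by limma, log2 -0.83 under DMSO, adjusted p = 5.66e-03; -1.11 under DMXAA, adjusted p = 9.05e-03). The labels do not say which exons were removed. Depth was 79.5 to 98.1 M reads per library.

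A class I molecule is a heavy chain folded around beta-2 microglobulin and a short peptide. The peptides are cut by the proteasome, pumped into the endoplasmic reticulum by the TAP transporter and loaded with the help of tapasin, and the complex is then shown to CD8 T cells at the surface. STING activation in macrophages leads to type I interferon, and class I genes are long known as interferon-inducible through interferon-stimulated response elements, an NF-kappaB site and the Nlrc5 transactivator at their promoters. The non-classical genes have narrower roles: H2-Q7 encodes a Qa-2 antigen, H2-T23 encodes Qa-1, which shows leader peptides to NK receptors, H2-T22 is a ligand of some gamma-delta T cells, and H2-M3 presents N-formylated peptides.

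The promoters of 9 members are in the RefSeq promoter table (GRCm38.p6), as windows of 300 bases from 250 before to 50 after the transcript start; H2-T24 was not matched. They are shown because every one of the 9 holds an element of the interferon-stimulated type in either of 2 spacings, as did 10.4% of all promoters of the table, while only some hold the NF-kappaB letters. The wider spacing was chosen after these sequences had been read, so the match in all 9 is not a test against that share. Each stretch is written 5′ to 3′ on the gene's own strand. Capitals mark matches, on either strand, to GAANNGAAA, to its wider form (GAAA, any 2 bases, GAAA), and to the NF-kappaB site of class I enhancer A. For H2-D1 and H2-T23 only 30 bases are given, since an annotated GENCODE exon covers the stretch.
H2-K1: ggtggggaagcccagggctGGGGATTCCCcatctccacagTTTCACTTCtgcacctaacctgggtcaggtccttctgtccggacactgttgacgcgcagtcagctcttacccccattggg
H2-D1: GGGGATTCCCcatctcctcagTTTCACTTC
H2-Q4: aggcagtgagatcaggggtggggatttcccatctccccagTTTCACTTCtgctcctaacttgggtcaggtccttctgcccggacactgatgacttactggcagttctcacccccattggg
H2-Q6: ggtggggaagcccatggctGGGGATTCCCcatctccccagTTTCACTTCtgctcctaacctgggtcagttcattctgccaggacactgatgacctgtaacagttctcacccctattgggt
H2-Q7: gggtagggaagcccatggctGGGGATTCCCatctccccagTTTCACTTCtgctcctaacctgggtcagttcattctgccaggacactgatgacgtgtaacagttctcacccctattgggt
H2-T22: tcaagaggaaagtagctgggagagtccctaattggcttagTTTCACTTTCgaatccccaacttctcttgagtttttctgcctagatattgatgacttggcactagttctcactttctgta
H2-T23: atcctactgcTTTCTCTTTCataaagacac
H2-M3: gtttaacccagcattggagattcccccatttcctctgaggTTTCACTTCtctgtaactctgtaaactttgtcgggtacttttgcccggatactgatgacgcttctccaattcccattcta
B2m: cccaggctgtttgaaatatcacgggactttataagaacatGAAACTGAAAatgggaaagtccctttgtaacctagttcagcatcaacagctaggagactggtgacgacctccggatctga

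The stretches lie at chr17:34000358-34000477 (minus strand) for H2-K1, chr17:35262923-35262952 for H2-D1 and chr17:35379424-35379543 for H2-Q4. Those of the Qa-2 pair lie at chr17:35424658-35424777 for H2-Q6 and chr17:35439002-35439121 for H2-Q7. H2-T22 is at chr17:36042854-36042973 and H2-T23 at chr17:36032806-36032835, both on the minus strand, H2-M3 at chr17:37270093-37270212, and B2m, on another chromosome, at chr2:122147508-122147627. The 9-letter GAANNGAAA was found in H2-K1, H2-D1, H2-Q4, H2-Q6, H2-Q7 and H2-M3, and in 7.52% of all 32851 promoters of the table. The wider form was found in H2-T22, H2-T23 and B2m, against 3.44% of all promoters; it was added to the search after the sequences had been read. The first base of these matches lay between -191 (H2-T22) and -101 (H2-M3), counting the start base as 0. The NF-kappaB letters, capitals in the upstream part of the stretch, were found in H2-K1, H2-D1, H2-Q6 and H2-Q7, against 0.107% of all promoters. CCAAT was found in all 9, but also in 37.4% of all promoters, and TGACGC in H2-K1, H2-D1, H2-Q4 and H2-M3, against 7.4%. A match is a description of letters in this window and not a measured binding site.

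DMXAA raised all 10 genes in both genotypes. In WT the log2 change ran from 1.28 for H2-D1 to 5.36 for H2-Q6, with a median of 3.06 over the members beside -0.003 over all 12752 tested genes. In KO it ran from 1.40 to 6.06, for the same 2 genes, with a median of 3.17 beside -0.003 over 12704 genes. Of all tested genes, 31.7% were called higher in WT and 33.7% in KO (limma, Benjamini-Hochberg adjusted p below 0.05). The 3 DMXAA libraries lay above the 3 DMSO libraries for all 10 members in each genotype, as they did for 34.7% of genes in WT and 35.8% in KO. In bulk libraries more RNA per cell and more cells of a type cannot be told apart. Values per library below are normalized counts, on a scale set within each genotype's table, with the DMSO libraries first and n = 3 per group.

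Among the classical heavy chains, H2-K1 (chromosome 17, 33996017 to 34000347, minus strand) rose from 185295, 184351 and 177709.8 to 868581, 852406 and 908281 normalized counts in WT (log2 2.26, SE 0.042, adjusted p = 4.30e-11). In KO the libraries held 163219.8, 157795 and 166287 under DMSO and 825317, 853117 and 837618 under DMXAA (log2 2.37, SE 0.037, adjusted p = 4.12e-12). The other classical gene, H2-D1 (chromosome 17, 35262730 to 35267499, plus strand), rose from 259701, 251144 and 264252 to 594985, 636944 and 657652 normalized counts in WT (log2 1.28, SE 0.047, adjusted p = 6.84e-09). KO libraries held 238747, 228572 and 252072 under DMSO and 624497, 644039 and 628222 under DMXAA (log2 1.40, SE 0.043, adjusted p = 8.07e-10). H2-D1 had the smallest change of the 10 in both genotypes, and H2-K1 had the next smallest after H2-D1, H2-M3 and B2m in each. The ratio of H2-K1 reads to H2-D1 reads within a library was 0.707 ± 0.031 in WT under DMSO and 1.39 ± 0.062 under DMXAA (SD, n = 3). In KO it was 0.678 ± 0.016 and 1.33 ± 0.00569. No DMXAA library overlapped a DMSO library in this ratio.

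The Q-region genes H2-Q6 and H2-Q7 had the widest changes of the 10. H2-Q6 (chromosome 17, 35424850 to 35430055) rose from 3266, 3026 and 3326 to 134322, 130649 and 131065 normalized counts in WT (log2 5.36, SE 0.048, adjusted p = 1.59e-12). In KO it went from 1552, 1518 and 2106 under DMSO and 111434, 114326 and 116117 under DMXAA (log2 6.06, SE 0.104, adjusted p = 7.83e-12). This is a fold of 41.2 in WT and 66.8 in KO, and it ranked 98 of 12752 and 83 of 12704 tested genes from the top. Its neighbour H2-Q7 (chromosome 17, 35439155 to 35443773), a Qa-2 gene, rose from 3129, 3539 and 3148 to 88471, 94777 and 94508 normalized counts in WT (log2 4.82, SE 0.058, adjusted p = 4.39e-12). KO values were 2519, 2573 and 2234 under DMSO and 75456, 83957 and 78681 under DMXAA (log2 5.02, SE 0.062, adjusted p = 9.18e-13). H2-Q7 ranked 130 and 133. H2-Q4 (chromosome 17, 35379617 to 35385290) rose from 4034, 4000.1 and 4215 to 41442, 39903 and 44777 normalized counts in WT (log2 3.36, SE 0.053, adjusted p = 1.72e-11). The KO libraries stood at 3201, 3041 and 3142 under DMSO and 33906, 34927 and 33478 under DMXAA (log2 3.45, SE 0.043, adjusted p = 9.32e-13). All 3 Q-region genes changed by 10.3-fold (H2-Q4 in WT) or more.

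In the T region, H2-T22 (chromosome 17, 36037128 to 36042747, minus strand), the gamma-delta T cell ligand, rose from 25532, 24536 and 23162 to 427686, 453153 and 442268 normalized counts in WT (log2 4.18, SE 0.047, adjusted p = 3.08e-12). In KO the values were 21487, 21782 and 22474 under DMSO and 372904, 409579 and 416119 under DMXAA (log2 4.19, SE 0.047, adjusted p = 6.20e-13). The Qa-1 gene H2-T23 (chromosome 17, 36029773 to 36032855, minus strand) rose from 14391, 12529 and 12169.6 to 89989, 83753 and 91926 normalized counts in WT (log2 2.77, SE 0.066, adjusted p = 2.50e-10). KO libraries gave 11009.9, 10926 and 11652 under DMSO and 79989, 86788 and 83699.9 under DMXAA (log2 2.90, SE 0.045, adjusted p = 3.71e-12). Its change was the smallest of the T-region genes in both genotypes. H2-T24 (chromosome 17, 36005695 to 36020560, minus strand), with the fewest reads per kb of exon in every group, rose from 716, 627 and 579 to 8273, 8825 and 8917 normalized counts in WT (log2 3.76, SE 0.081, adjusted p = 1.19e-10). In KO it stood at 356, 393 and 425 under DMSO and 9023, 9387 and 8774 under DMXAA (log2 4.53, SE 0.073, adjusted p = 5.21e-12).

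H2-M3 (chromosome 17, 37270220 to 37274484), which presents N-formylated peptides, rose from 2367, 2189 and 2214 to 6302, 6382 and 6083 normalized counts in WT (log2 1.47, SE 0.055, adjusted p = 7.17e-09). KO macrophages had 2069, 2301 and 2204 under DMSO and 6299, 6627 and 6703 under DMXAA (log2 1.58, SE 0.057, adjusted p = 2.75e-09). The light chain gene B2m (chromosome 2, 122147686 to 122153083) rose from 84178, 81602 and 80152 to 242865, 216578 and 251266 normalized counts in WT (log2 1.53, SE 0.056, adjusted p = 6.94e-09). In the KO libraries it was 64684, 62302 and 57872 under DMSO and 246768, 263709.8 and 252483 under DMXAA (log2 2.05, SE 0.048, adjusted p = 8.86e-11). With H2-D1, these 2 genes had the 3 smallest changes in WT. The same 3 were the smallest in KO.

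**Figure D1:**
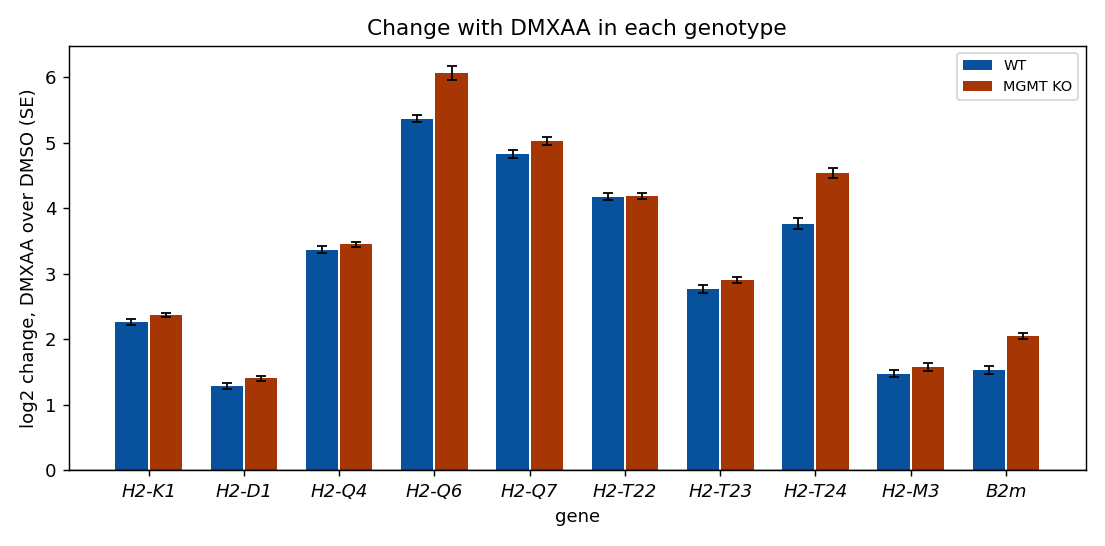
Log2 change with DMXAA (vertical axis, DMXAA over DMSO, log2 of normalized count + 1) for each of the 10 genes (horizontal axis) in WT and MGMT KO macrophages; bars are fitted changes from 3 libraries per group and error bars are SE. All bars are above 0, from 1.28 (H2-D1, WT) to 6.06 (H2-Q6, KO).

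These changes depend on how libraries are scaled. Rescaling the libraries to the same total shifted the all-gene median by -0.32 (log2) in WT and -0.39 in KO. On that scale the members still rose, from 0.97 (H2-D1) to 5.05 (H2-Q6) in WT and from 1.01 to 5.67 in KO, and all 10 were called. In the authors' deposited tables the log2 fold changes of the members differed from those given here by at most 0.005 in WT and 0.015 in KO.

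All 8 macrophage markers were present. Their summed level in reads per M reads (RPM) was 20594 to 21044 in WT under DMSO and 11478 to 11719 under DMXAA, and 16736 to 17543 and 9396 to 9485 in KO. Singly, 2 of the 8 were called higher and 5 lower with DMXAA in WT, and 2 and 6 in KO. Fcgr1 rose by log2 3.31 in WT and 3.84 in KO. Cd68 rose by 0.355 and 0.256, but was not called higher at the same total. The 7 dendritic cell markers summed to 0.266 to 1.03 in WT and 0.586 to 0.676 in KO under DMSO. Under DMXAA they summed to 5.82 to 6.08 and 5.66 to 6.82, with Xcr1 going from 5.59 ± 0.996 to 394 ± 18.2 normalized counts in WT. Only 4 of the 7 had enough counts to be tested with DMXAA, and these 4 were called higher in each genotype. Zbtb46 went from 4.05 to 0.749 and Flt3 from 1.51 to 2.13 normalized counts in WT, and Siglech was at 0 under DMXAA. The 4 endothelial markers summed to 8.9 to 10.7 in WT and 11.2 to 11.7 in KO under DMSO, and 53 to 55.9 and 59.4 to 61 under DMXAA, almost all of it Kdr (511 ± 24 to 5118 ± 117 normalized counts in WT). The 7 neutrophil markers summed to 4.71 to 6.62 in WT and 0.733 to 1.18 in KO under DMSO, and 2.51 to 2.89 and 0.734 to 0.808 under DMXAA, with no value listed for Elane. The 6 stromal markers summed to 0.185 to 0.564 in WT and 0.631 to 5.58 in KO under DMSO, and 0.13 to 0.452 and 0.499 to 0.85 under DMXAA, with Lum at 0 in WT. B cell markers summed to at most 1.98 RPM and T and NK cell markers to at most 1.84, with no value listed for Cd3d or Cd8a. B2m alone took 0.0718 to 0.256% of all reads. The part of these cells in the class I values was not tested.

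Levels of different genes were compared as reads per kb of annotated exon per M reads (RPKM), from recovered whole reads. Under DMSO in WT, H2-D1 was highest at 1274 ± 26.7 (SD, n = 3), then B2m at 1213 ± 26.4 and H2-K1 at 790.1 ± 18.9. With the longest transcript as the length, H2-D1 was still highest (1564 ± 32.8), but H2-K1 (1239 ± 29.7) overlapped B2m. On all exons H2-T22 followed at 91 ± 4.26 and H2-T23 at 57.4 ± 4.94. H2-Q4 (20 ± 0.546), H2-M3 (20 ± 0.726) and H2-Q6 (19.6 ± 0.854) overlapped as neighbours in the order and could not be ranked. H2-Q7 (9.76 ± 0.762) and H2-T24 (3.73 ± 0.389) were lowest.

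KO under DMSO kept H2-D1 (1169.6 ± 41.1), B2m (902 ± 59.3), H2-K1 (696 ± 9.12), H2-T22 (80.8 ± 1.32) and H2-T23 (48.8 ± 1.12) in the same places, though on the longest transcript H2-K1 (1091 ± 14.3) stood above B2m. Its next levels were 19.2 ± 1.16 for H2-M3, 15.2 ± 0.317 for H2-Q4 and 10.4 ± 1.85 for H2-Q6, and here no neighbours overlapped. H2-Q7 stood at 7.21 ± 0.631 and H2-T24 at 2.26 ± 0.184.

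Under DMXAA the order at the top changed. In WT, H2-K1 (3046 ± 98.9), B2m (2813 ± 224) and H2-D1 (2493 ± 108) overlapped as neighbours, H2-K1 with B2m and B2m with H2-D1. In KO, on this length, they were separate, with B2m at 2841 ± 81.8, H2-K1 at 2743 ± 31.1 and H2-D1 at 2356 ± 30.3. The order of these 3 depends on the length used. With the longest transcript in place of all exons, H2-K1 stood at 4775 ± 155 in WT and 4300 ± 48.7 in KO under DMXAA, above both others, and H2-D1 (3059 ± 133 and 2890 ± 37.2) overlapped B2m. Below them both genotypes had the same order. H2-T22 reached 1319 ± 28.2 in WT and 1124 ± 57.9 in KO, and H2-Q6 reached 646 ± 15.3 and 525 ± 7.62. H2-T23 stood at 313 ± 16.2 and 278 ± 9.61, H2-Q7 at 222 ± 6.73 and 179 ± 8.69, and H2-Q4 at 165 ± 9.68 and 126 ± 2.67. H2-M3 (44.4 ± 1.21 and 43.7 ± 1.14) and H2-T24 (40.6 ± 1.31 and 39.9 ± 1.35) were lowest. H2-Q6 stood below H2-T23 under DMSO and above it under DMXAA in both genotypes.

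**Figure D2:**
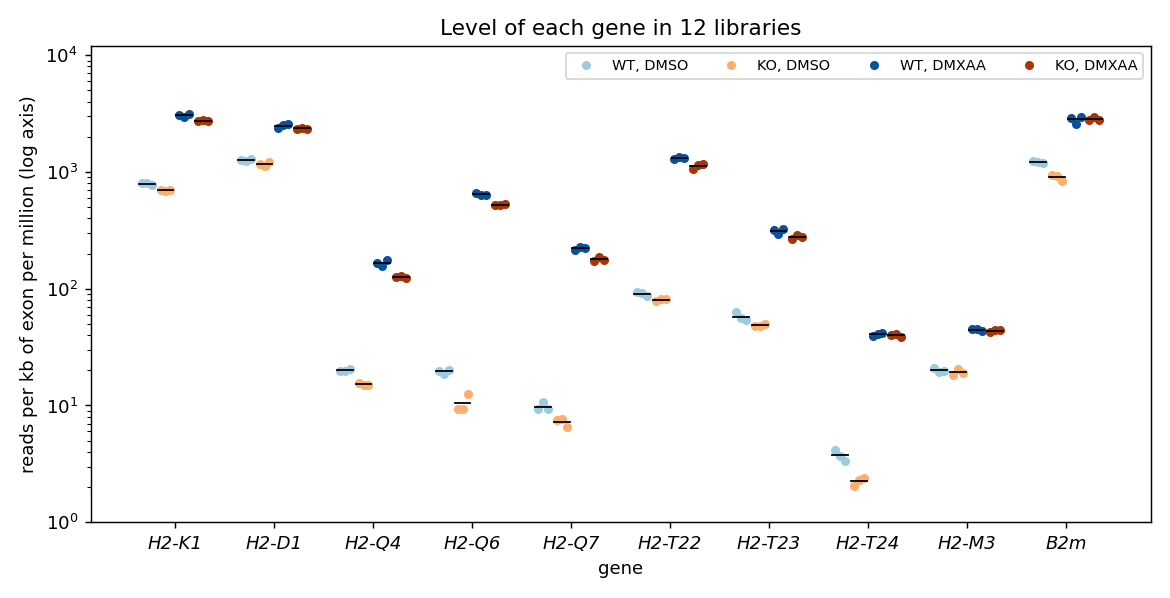
Level of each gene (horizontal axis) in RPKM (vertical axis, log scale); each point is 1 of 12 libraries and each line a group mean of 3. The DMXAA points lie above the DMSO points for all 10 genes, and the KO points of H2-Q6 and H2-T24 lie below the WT points under DMSO.

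Near-identical class I copies limit what a single symbol shows. The tables also list H2-L, H2-T9, H2-Q8 and H2-Q9, which have no model in GENCODE vM21, so how reads were divided between them and the members is uncertain. H2-L held 0.992 to 1.05 times the reads of H2-D1 in every library, and H2-T9 held 0.212 to 0.215 times those of H2-T22. H2-Q8 held 0.199 to 0.291 times the reads of H2-Q6, and H2-Q9 0.367 to 0.451 times those of H2-Q7. With H2-L added to H2-D1, the ratio of H2-K1 to both was 0.328 to 0.367 under DMSO and 0.654 to 0.726 under DMXAA, so H2-K1 then never exceeded the pair. Of the 100-base windows of the members' GENCODE transcripts, 12% in H2-Q7, 10.8% in H2-Q6 and 8.86% in H2-T22 also occurred in another gene. The share was 3.59% or less in H2-D1, H2-T23, H2-Q4 and H2-K1, and no window of H2-T24, H2-M3 or B2m was shared. Only GENCODE vM21 transcripts were searched, so windows shared with H2-L, H2-T9, H2-Q8 or H2-Q9 could not be found. The shares are therefore lower bounds, and they do not show that H2-D1 differs from H2-L.

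Summing copies moved H2-D1 and H2-T22 little and the Qa-2 genes more. H2-D1 with H2-L changed by log2 1.27 (SE 0.047) in WT and 1.38 (SE 0.041) in KO. H2-T22 with H2-T9 changed by 4.18 and 4.19. The 4 Qa-2 symbols together, H2-Q6 to H2-Q9, changed by 5.05 (SE 0.038) in WT and 5.42 (SE 0.041) in KO, against 5.36 and 6.06 for H2-Q6 alone. Counting by strand is not stated. A930015D03Rik, annotated antisense across H2-T22, H2-T23 and H2-T24, held 24 to 38 reads per library under DMSO and 239 to 285 under DMXAA. It thus rose with treatment as these members did. Patl2, which lies across B2m on the other strand, held 0 to 31.

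The 9 heavy chains took 0.626% ± 0.00367 of all reads in WT under DMSO and 2.37% ± 0.052 under DMXAA (SD, n = 3). In KO they took 0.560% ± 0.013 and 2.11% ± 0.037. H2-K1 and H2-D1 made up 89.7% ± 0.39 of heavy-chain reads in WT under DMSO and 65.0% ± 0.58 under DMXAA, a difference of -24.7 percentage points. In KO they made up 90.3% ± 0.23 and 67.0% ± 0.74, a difference of -23.4 points. No DMSO library overlapped a DMXAA library in either genotype (exact two-sided permutation p = 0.1, adjusted 0.1 over 4 comparisons, the smallest that 3 against 3 can give). The loss was in H2-D1, whose share went from 52.5% ± 1.15 to 27.2% ± 0.73 in WT and from 53.8% ± 0.61 to 28.8% ± 0.39 in KO. The H2-K1 share stood at 36 to 38.6% in all 12 libraries. H2-T22 went from 4.96% ± 0.22 to 19.0% ± 0.56 in WT, and H2-Q6 from 0.652% ± 0.028 to 5.70% ± 0.23. The genotypes differed by 0.69 points under DMSO and 1.97 under DMXAA, with no overlap between libraries in either. That small difference depends on which genes are counted: against every listed class I gene, H2-L included, it was -0.35 under DMSO, and the change with DMXAA was -9.44 points in WT and -8.06 in KO.

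**Figure D3:**
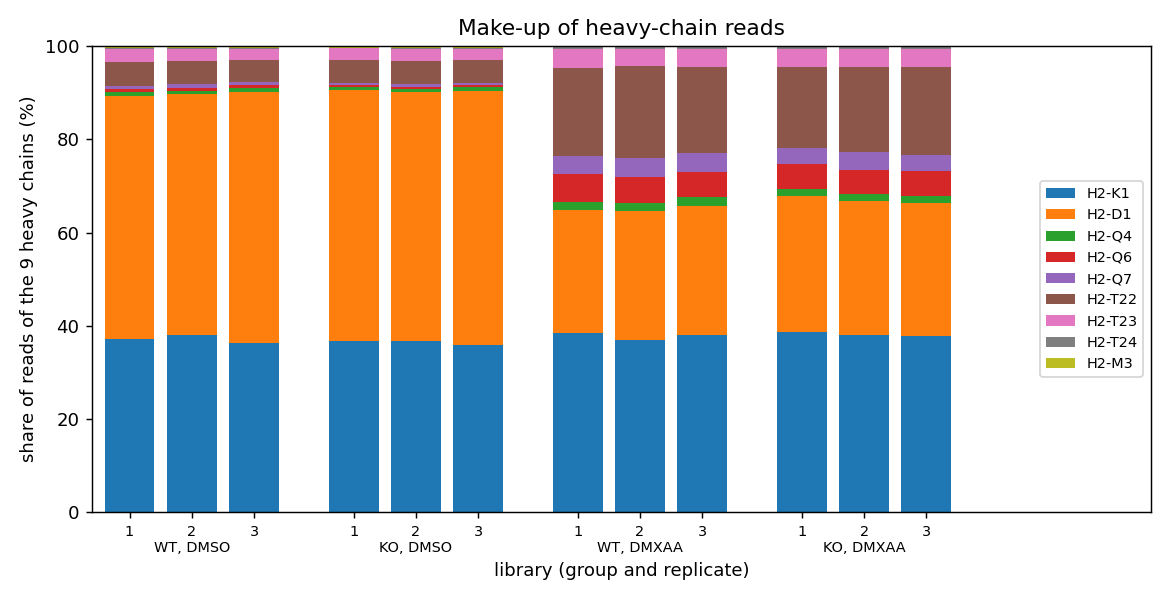
Share of the reads of the 9 heavy chains taken by each gene (vertical axis, percent) in each of 12 libraries (horizontal axis, grouped by genotype and treatment). H2-K1 stays between 36 and 38.6%, while H2-D1 goes from 51.7 to 54.5% under DMSO to 26.3 to 29.2% under DMXAA and H2-T22 takes up to 19.6%.

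The light chain pairs with every heavy chain, so B2m was also set against the sum of the 9 heavy chains per kb of exon. The ratio in WT was 0.538, 0.535 and 0.519 under DMSO and 0.357, 0.312 and 0.349 under DMXAA. In KO it was 0.463, 0.462 and 0.397 under DMSO and 0.381, 0.390 and 0.379 under DMXAA. On the log2 scale the ratio changed with DMXAA by -0.65 in WT and -0.20 in KO. KO minus WT was -0.27 under DMSO and 0.18 under DMXAA. Libraries did not overlap in any of these 4 comparisons (exact two-sided permutation p = 0.1 each, the smallest possible, adjusted 0.1). The genotypes stood in opposite order under the 2 treatments. Copies without a gene model are not in this sum.

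**Figure D4:**
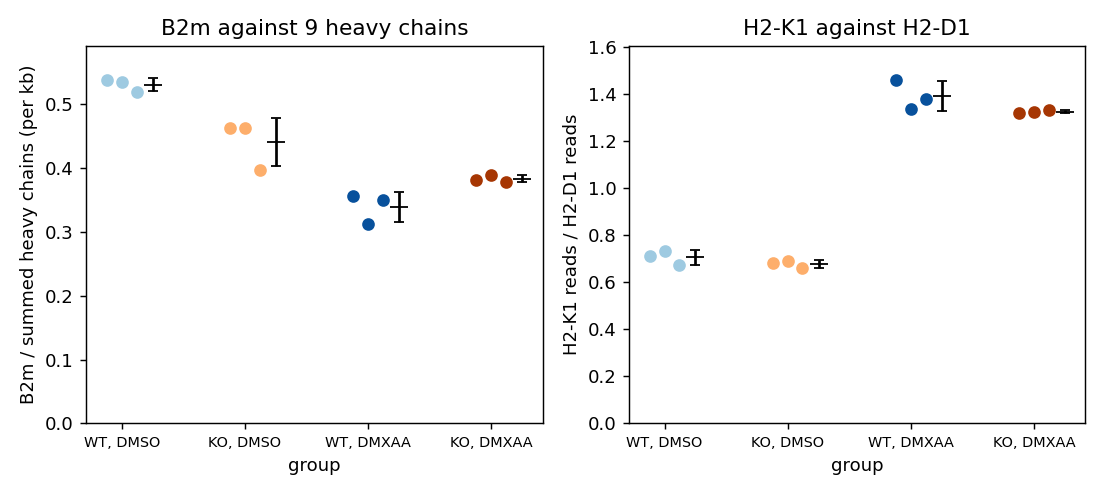
Left, B2m over the summed 9 heavy chains per kb of exon; right, H2-K1 reads over H2-D1 reads (vertical axes, ratios) in the 4 groups (horizontal axis). Points are libraries, and the bar beside them is the mean ± SD of 3; B2m over heavy chains is highest in WT under DMSO (0.519 to 0.538) and H2-K1 over H2-D1 is above 1 in the 6 DMXAA libraries.

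Between the genotypes under DMSO, 8 of the 10 genes were lower in KO, while 9.58% of the 12814 tested genes were called lower. The median log2 difference of KO over WT was -0.34 over the members and 0.005 over all genes. The KO libraries lay below the WT libraries in 9 of 10 genes, H2-M3 being the exception, and in 17.6% of all genes.

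H2-Q6, with the widest gap, held under DMSO 3659, 3395 and 3722 normalized counts in WT and 1689, 1658 and 2287 in KO (log2 -0.95, SE 0.110, adjusted p = 1.68e-04). H2-T24 stood at 802, 703 and 648 normalized counts in WT and 388, 429 and 462 in KO (log2 -0.75, SE 0.109, adjusted p = 7.73e-04). In both genes the highest KO library was under the lowest WT library. B2m, the light chain, held 94294, 91546 and 89683 normalized counts in WT and 70384, 68033 and 62857 in KO (log2 -0.45, SE 0.052, adjusted p = 1.60e-04). H2-Q7 held 3505, 3969.9 and 3522 normalized counts in WT and 2741, 2810.2 and 2426 in KO (log2 -0.46, SE 0.077, adjusted p = 1.81e-03). For H2-Q4 the libraries gave 4519, 4488 and 4716 normalized counts in WT and 3483, 3321 and 3413 in KO (log2 -0.42, SE 0.056, adjusted p = 4.21e-04). Each of these 5 genes was called under every alternative setting. The classical and the remaining T-region genes differed less: H2-K1 by -0.21, SE 0.044, adjusted p = 8.15e-03, H2-T23 by -0.26, SE 0.066, adjusted p = 2.20e-02 and H2-T22 by -0.20, SE 0.051, adjusted p = 2.34e-02. H2-D1 (log2 -0.15, adjusted p = 6.04e-02) and H2-M3 (-0.08, adjusted p = 4.51e-01) were not called.

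H2-T22 and H2-T23 were called by a narrow margin. Without WT replicate 1 or 2 or KO replicate 1 or 2, the adjusted p of H2-T22 was 0.0503, 0.0771, 0.0991 and 0.0648. Without KO replicate 1 or 2 that of H2-T23 was 0.0815 and 0.0731. H2-D1 was called without KO replicate 3 (log2 -0.19, adjusted p = 3.85e-02) and by edgeR (4.24e-02), by DESeq2 (2.78e-02) and at the same upper quartile (1.65e-02). The authors' deposited table puts 9 of the 10 members below 0.05.

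Under DMXAA 4 genes were called lower in KO: H2-Q4, H2-Q6, H2-Q7 and H2-T22. Of the 12499 tested genes 10.8% were called lower, the median over members was -0.12 beside -0.002 over all genes, and KO libraries lay below WT in 5 members and in 18.5% of genes. H2-Q4 held under DMXAA 38317, 36675 and 41268 normalized counts in WT and 30392, 31218 and 29933 in KO (log2 -0.34, SE 0.045, adjusted p = 3.98e-04). H2-Q6 held 124195, 120082 and 120794 normalized counts in WT and 99884, 102188 and 103823 in KO (log2 -0.26, SE 0.032, adjusted p = 3.06e-04). H2-Q7 held under DMXAA 81801, 87112 and 87102 normalized counts in WT and 67635, 75043 and 70351 in KO (log2 -0.27, SE 0.044, adjusted p = 1.71e-03). All 3 Q-region genes were below WT under both treatments with no overlap. H2-T22 held 395441, 416502 and 407610.3 normalized counts in WT and 334251, 366095 and 372061 in KO (log2 -0.19, SE 0.043, adjusted p = 1.12e-02). Without WT replicate 2 its adjusted p was 5.13e-02.

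The other 6 genes were not called under DMXAA. H2-K1 missed the threshold narrowly (log2 -0.11, SE 0.034, adjusted p = 5.06e-02) with all 3 KO libraries below the WT libraries, and H2-T23 stood at -0.13 (adjusted p = 6.66e-02). Both were called by DESeq2 (H2-K1 2.34e-02, H2-T23 3.29e-02) and after either rescaling (7.22e-03 and 1.69e-02 at the same total), and H2-K1 also by edgeR (1.68e-02) and with a pseudocount of 0.5 (4.87e-02). H2-T23 was called without WT replicate 2 (log2 -0.17, adjusted p = 3.03e-02). The log2 difference was -0.04 for H2-D1, 0.02 for H2-T24, 0.02 for H2-M3 and 0.06 for B2m, with SE of 0.039 to 0.053 and overlapping libraries. The signs of H2-T24 and H2-M3 turned when libraries were rescaled (to -0.02 at the same total).

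**Figure D5:**
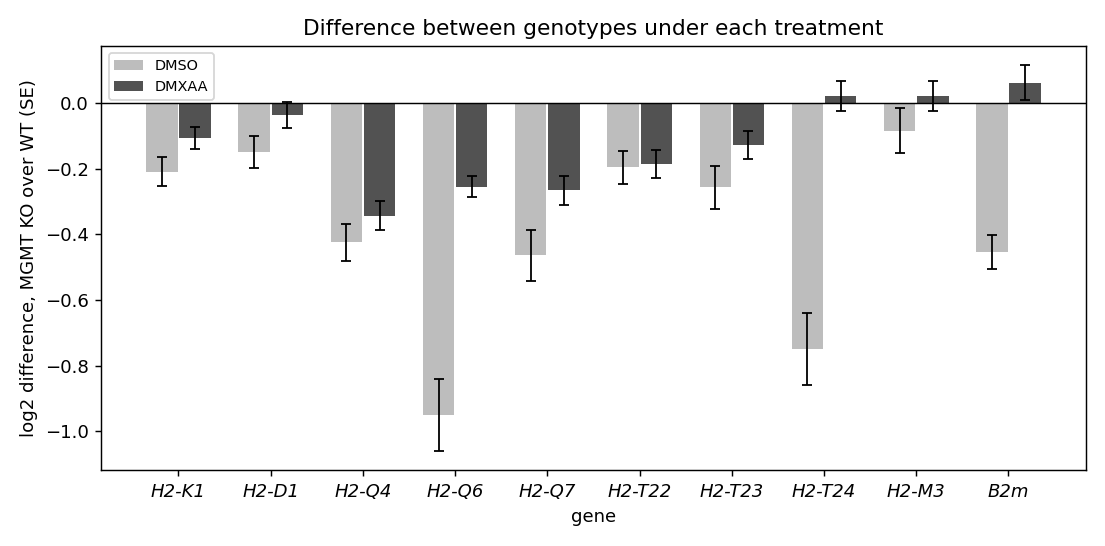
Log2 difference of MGMT KO over WT (vertical axis, log2 of normalized count + 1) for each gene (horizontal axis) under DMSO and under DMXAA; bars are fitted differences from 3 libraries per group and error bars are SE. The bars of H2-Q6, H2-T24 and B2m reach -0.95, -0.75 and -0.45 under DMSO and -0.26, 0.02 and 0.06 under DMXAA; the signs of H2-T24 and H2-M3 under DMXAA turn with rescaling.

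The difference between these differences was tested as an interaction over all 12 libraries, the response to DMXAA in KO minus that in WT. It was called in 3 of 10 members, all with the larger log2 response in KO, while 5.37% of 12729 tested genes were called in that direction. The value was 0.77 (SE 0.113, adjusted p = 6.65e-04) for H2-T24, 0.69 (SE 0.128, adjusted p = 3.49e-03) for H2-Q6 and 0.52 (SE 0.079, adjusted p = 9.12e-04) for B2m. All 3 were called in every alternative fit of that gene, at values of 0.69 to 0.84 for H2-T24, 0.61 to 0.85 for H2-Q6 and 0.45 to 0.56 for B2m. Each of the 3 was lower in KO under DMSO, and under DMXAA H2-Q6 was still lower in KO while H2-T24 and B2m were not called. The other 7 members ranged from 0.01 (H2-T22, adjusted p = 9.60e-01) to 0.20 (H2-Q7, adjusted p = 2.17e-01). H2-Q6 and H2-Q7 taken as 1 sum differed by 0.42 (SE 0.052, adjusted p = 1.79e-04), and the 4 Qa-2 symbols by 0.37 (SE 0.052, adjusted p = 4.11e-04), both under the 0.69 of H2-Q6 alone.

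The genes that act with class I mostly rose alongside. Of 9 peptide loading genes 8 rose and 1 fell in each genotype, with medians of 2.16 in WT and 1.88 in KO. The peptide transporter gene Tap1 rose from 8095 ± 453 to 64361 ± 1243 normalized counts in WT (log2 2.99, SE 0.049, adjusted p = 2.33e-11) and by log2 3.20 in KO, and its partner Tap2 by 2.16 and 1.88. Tapasin (Tapbp) rose by log2 2.20 in WT and 1.98 in KO, and the tapasin-related editor Tapbpl by 2.77 and 2.56. The class I transactivator Nlrc5 rose by 2.22 and 2.41, and the trimming peptidase Erap1 by 1.06 and 0.99. The endoplasmic reticulum chaperones changed less: Pdia3 rose by 0.37 and 0.25, Calr by 0.16 and 0.19, and Canx (calnexin) fell (-0.25 and -0.34). At the same total Calr turned to -0.16 and -0.20, Pdia3 stood at 0.06 and -0.14, and 6 loading genes rose and 2 fell in each genotype.

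All 5 genes of the immunoproteasome and its PA28 activator rose in both genotypes, with medians of 2.42 in WT and 2.43 in KO. Psmb8, Psmb9 and Psmb10, the inducible catalytic subunits, rose by log2 2.35, 2.64 and 2.54 in WT and 2.37, 2.60 and 2.43 in KO. The activator genes Psme1 and Psme2 rose by 2.22 and 2.42 in WT, and by 2.24 and 2.46 in KO.

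Between genotypes, 3 of the 9 loading genes were lower in KO under DMSO (Tap1 -0.33, Nlrc5 -0.37 and Calr -0.15) and 5 under DMXAA, with Tap2 at -0.35, SE 0.045, adjusted p = 3.06e-04. Of the immunoproteasome list 1 was lower under DMSO (Psme2, -0.25) and 3 under DMXAA. Of all tested genes, 9.58% were called lower under DMSO and 10.8% under DMXAA. At the same total Calr was not called under DMSO (-0.12, adjusted p = 6.91e-02), which left 2 loading genes and 1 immunoproteasome gene lower. Under DMXAA 6 loading genes and 5 immunoproteasome genes were then lower. In the interaction, the response in KO was smaller for Tap2, -0.28 (SE 0.066, adjusted p = 1.58e-02), and Tapbp, -0.22 (SE 0.057, adjusted p = 2.71e-02), opposite in sign to the 3 called members. Tap1, at 0.21 (SE 0.062, adjusted p = 5.53e-02), was not called, and 0 of the 5 immunoproteasome genes were called by limma (adjusted p of 3.31e-01 to 9.64e-01, 0 at an unadjusted p below 0.05) and 0 by edgeR or DESeq2.

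Of 14 regulators of class I transcription, 8 rose in each genotype, 3 fell in WT and 4 fell in KO. Among the genes with the smallest p, Stat2 rose by log2 3.50 in WT and 3.96 in KO, and Irf7 by 4.84 and 6.93. Irf7 had under DMSO 25724 ± 3451 normalized counts in WT and 6529.9 ± 926 in KO (log2 -1.98, SE 0.108, adjusted p = 1.74e-06). Under DMXAA it had 604354 ± 8919 and 648865 ± 14821 (log2 0.10, SE 0.032, adjusted p = 4.31e-02), a difference that was not called at the same total (0.06, adjusted p = 1.91e-01). The response in KO was larger by 2.08 (SE 0.131, adjusted p = 4.61e-07) for Irf7 and by 0.45 (SE 0.061, adjusted p = 3.18e-04) for Stat2. Irf8 fell with DMXAA in both genotypes (-0.57 in WT and -0.17 in KO), and fell less in KO, with a difference of 0.39 (SE 0.057, adjusted p = 5.71e-04). In all, KO minus WT was called above 0 in 5 of the 14 and below 0 in 2.

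Of 24 tested other class I and class I-like genes, 17 rose and 4 fell in WT, and 18 rose and 4 fell in KO. At the same total 16 rose and 7 fell in WT, and 18 and 5 in KO. The 24 include H2-L, H2-T9, H2-Q8 and H2-Q9, whose division of reads from the members is uncertain, so they are not separate evidence. H2-M2, a further M-region gene, rose by log2 3.32 and 3.03 and was lower in KO under both treatments (-1.36 and -1.65). Under DMSO 8 of the 24 were lower in KO and 1 higher, and under DMXAA 5 and 1. Of all tested genes, 9.58% and 10.8% were called lower. At the same total 4 of the 24 were lower and 1 higher under DMSO, and 6 and 1 under DMXAA. At the same upper quartile it was 9 and 1, and 6 and 1. Procr, the endothelial protein C receptor, which is class I-like in fold, held under DMSO 479.5 ± 33.5 normalized counts in WT against 201 ± 40.8 in KO (log2 -1.27, SE 0.145, adjusted p = 1.59e-04), and its response to DMXAA differed by 1.20 (SE 0.215, adjusted p = 3.04e-03). Raet1d, an NKG2D ligand, differed in response by 0.99 (SE 0.249, adjusted p = 2.30e-02) and H2-Q8 by 0.60 (SE 0.158, adjusted p = 3.06e-02). With DMXAA Procr was not called in WT (log2 -0.29) and rose in KO (0.91). Raet1d fell in WT (-0.92) and was not called in KO (0.07). Of 10 class II presentation genes, 9 rose and 1 fell in WT with a median of 1.05, and 8 rose in KO with a median of 0.89. Between genotypes 4 of 9 tested class II genes were lower in KO under DMSO and 6 of 10 under DMXAA (medians -0.02 and -0.63).

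The genes whose pattern over the 12 libraries was most like the mean of the members were Tap1, Helz2, Sp100, Bst2 and Stat2, with Pearson r of 0.9995 to 0.9997 among 11428 genes. For B2m alone they were Rnf213, Il18bp, Ccl2, Ms4a6b and Ifi209, with r of 0.9945 to 0.9958. The libraries fall into a DMSO and a DMXAA cluster and share that step.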

How the data were processed

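RNA was measured by strand-specific mRNA sequencing of 12 libraries, 3 in each of 4 groups assigned from the sample titles. Reads were aligned to mm10 with HISAT2 and counted with featureCounts, per the submitters' processing notes (no versions named there). Each deposited value is a normalized count. These values are a signal scaled by the authors within each of 4 tables of 6 libraries. The labels mark no separate batches among the 12 libraries. Within a library these values are multiples of a common step, so reads were recovered by division: 100% came out whole to within 0.01. Depth was 79.5 to 98.1 M reads. On recovered reads edgeR called 8003 genes in WT, 8475 in KO, 2127 and 2652 between genotypes under DMSO and DMXAA, and 1123 in the interaction. The authors' deposited comparison tables hold a log2 fold change and an adjusted p-value per gene, quoted only where named.

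Comparisons were made inside the 1 table with both groups, by limma 3.58.1 (lmFit, then eBayes with a trend) on log2(normalized count + 1), over genes averaging 10 or more, and called at a two-sided Benjamini-Hochberg adjusted p below 0.05. The fit was also run on simulated counts with the same dispersion for every gene. Far fewer genes were changed there than were called here with DMXAA, so that run gives no error rate for these data. A fold is 2 to the power of the log2 difference and understates changes of low genes. The interaction used all 12 libraries. Ratios used exact permutation tests (scipy 1.17.1). Levels per kb used the union of GENCODE vM21 exons, and coordinates are from that annotation (GRCm38, the build of mm10).

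The members and gene lists were chosen with earlier results of these data known. Named were the 10 members, Mgmt, and every gene of a list with 10 or fewer tested genes or the 3 with the smallest p. The 5 genes most correlated with the members or B2m were also named. Rfx5 was added as a regulator called below 0 in the interaction. Not all of the named genes are printed. Alternatives were another pseudocount or filter, other scalings, edgeR 4.0.16 and DESeq2 1.42.0 on recovered reads, a replicate block, each library left out, and copies summed. Summing copies, adding them to the shares and the wider promoter spacing were chosen after seeing the data. The planned protein comparison was not run.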

Additional observations from a re-analysis of the deposited data

Results flagged for a closer look

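For 3 members the response to DMXAA differed between the genotypes by the test of the difference itself (limma interaction over 12 libraries, Benjamini-Hochberg adjusted), on the log2 scale and as KO minus WT: 0.52 for B2m (adjusted p = 9.12e-04), 0.69 for H2-Q6 (adjusted p = 3.49e-03) and 0.77 for H2-T24 (adjusted p = 6.65e-04). In each of the 3, all KO libraries under DMSO lay below all WT libraries. The same held for 9 of the 10 members and 17.6% of all tested genes, so it does not set these 3 apart. Among the other genes named, the same test gave 1.20 for Procr, 0.99 for Raet1d and 0.60 for H2-Q8, whose division of reads from H2-Q6 is uncertain. The change of Procr with DMXAA was -0.29 (not called) in WT and 0.91 in KO. That of Raet1d was -0.92 in WT and 0.07 (not called) in KO, so its value comes from a fall in WT only. It gave -0.28 for Tap2 and -0.22 for Tapbp, whose response was smaller in KO. Among the regulators it gave 2.08 for Irf7, 0.45 for Stat2 and 0.39 for Irf8, which fell with DMXAA and fell less in KO. In the other direction it gave -0.30 for Irf1 and -0.42 for Rfx5.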

How the results depend on the processing

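All 10 members were called higher with DMXAA in both genotypes under every alternative run, and 3 members stayed the count in the interaction under each. The count lower in KO under DMSO was 8, and 6 to 9 with 1 library left out; under DMXAA it was 4, and 4 to 6 over the alternatives. Rescaling to the same total or the same upper quartile turned the KO over WT difference under DMXAA of H2-T24 (-0.024 and -0.003) and H2-M3 (-0.023 and -0.002), and the same total turned the interaction of H2-T22 (-0.061). With 1 library left out, H2-T24 under DMXAA ranged from -0.011 (without WT replicate 1) to 0.044, B2m from -0.004 (without WT replicate 2) to 0.11, and the H2-T22 interaction from -0.024 to 0.057; none of these was called in any fit. The H2-K1 and H2-D1 share of heavy-chain reads changed with DMXAA by -9.44 points in WT and -8.06 in KO when every listed class I gene was counted, and by -23.5 and -22.1 with the copies added. Counted over every listed gene, the genotype difference in that share was -0.354 under DMSO, where its sign turned, and 1.02 under DMXAA.

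Scaling also moved the split of all calls. In WT it was 4047 higher and 3960 lower, but 2044 and 7103 at the same total and 2732 and 5640 at the same upper quartile. In KO it was 4282 and 4180, then 1996 and 7860, and 3033 and 5673. Between genotypes it was 902 and 1227 under DMSO, or 1125 and 1087 at the same total and 657 and 1447 at the same upper quartile, and 1335 and 1351 under DMXAA, or 939 and 1800 at the same total. The interaction had 683 and 412, or 482 and 748 at the same total.

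Replicate numbers gave little sign of pairing: deviations of same-numbered libraries correlated at -0.10 to 0.12. Every library correlated best with its own number only in the WT comparison of DMXAA with DMSO, where r was 0.04 to 0.12. With the number as a replicate block, 10, 10, 8, 4 and 3 members were called, as without it. Calls over all genes moved to 7865 in WT, 8267 in KO, 1915, 2491 and 989. The Roman numerals of the library names group the DMSO and DMXAA libraries differently. With these as the block, on the libraries that share a numeral, calls were 6893 in WT and 8001 in KO.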

Other observations

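The share of reads assigned to H2-Q8 and H2-Q9 moved with treatment. H2-Q8 held 0.256 ± 0.011 of the reads of H2-Q6 in WT under DMSO and 0.203 ± 0.0044 under DMXAA (SD, n = 3), and 0.280 ± 0.011 and 0.207 ± 0.00076 in KO. H2-Q9 held 0.409 ± 0.015 of the reads of H2-Q7 in WT under DMSO and 0.369 ± 0.00081 under DMXAA, and 0.448 ± 0.0052 and 0.372 ± 0.0044 in KO. The ratios under DMSO lay above those under DMXAA in all libraries. In WT the treatments overlapped in H2-T9 over H2-T22 (0.212 to 0.215 over all 12 libraries) and in H2-L over H2-D1 (0.992 to 1.05). In KO the H2-T9 ratio did not overlap (0.2122 to 0.2138 under DMSO and 0.2143 to 0.2148 under DMXAA). None of these ratios was tested.

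KO replicate 3 under DMSO had the lowest B2m (62857 normalized counts against 68033 and 70384) and the lowest H2-Q7 (2426 against 2741 and 2810) of its group. The same library had the highest H2-Q6 (2287 against 1658 and 1689) and the highest H2-D1 (273782 against 249600 and 259785).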
